A study of Mus musculus with 12 samples.

Results

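The death receptor and necroptosis genes examined here are 9 genes of the pathways by which ligands, interferons and caspases decide whether a cell dies. They are *Tnfsf10*, *Fas*, *Casp8*, *Cflar*, *Ripk1*, *Ripk3*, *Mlkl*, *Daxx* and *Xaf1*, and they were taken by symbol from a count table of 55471 genes. Each symbol matched a row of its own, and 9 of 9 were among the 18228 genes that passed the filter on low counts. Their transcripts were measured by RNA-seq in dendritic cells (DCs), antigen-presenting cells, grown from the bone marrow of mice. Interferon-β (IFN-β), an antiviral cytokine, raised 8 of the 9 in control DCs, where 23.7% of all tested genes rose. With IFN-β present, 5 of them were lower in DCs that carried a hairpin against *Ppargc1b* than in control DCs, as were 12.7% of all tested genes.

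Marrow of adult female C57BL/6 mice was grown in the cytokine GM-CSF and infected with a retrovirus that carried a short hairpin RNA (shRNA) and a human CD8 reporter. The hairpin was directed against firefly luciferase, a gene that mouse cells do not have (shControl), or against *Ppargc1b* (sh*Ppargc1b*), whose product PGC-1β helps transcription factors switch on genes of mitochondrial metabolism. Cells were sorted on the reporter and were then left unstimulated or were given IFN-β for 6 h, so that each hairpin was seen with and without the cytokine, in 4 groups of 3 libraries. The design asks what less PGC-1β does to the transcripts of resting DCs and of DCs that respond to interferon. The labels do not tell hairpins against *Ppargc1b* apart, so effects of a hairpin beyond its target cannot be separated from those of less PGC-1β. Vector, reporter, sort and GM-CSF culture were shared by all 4 groups, and the cells of a library were a mixed transduced culture and not a clone. The labels do not say whether the libraries of a group came from separate mice or cultures, so the p-values below measure only the spread between these libraries, which may be technical.

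Death ligands such as TRAIL, the product of *Tnfsf10*, and Fas ligand bind receptors whose death domains recruit the adaptor FADD and the initiator protease caspase-8. Caspase-8 can start apoptosis, and it also cleaves the kinases RIPK1 and RIPK3. When caspase-8 is blocked, RIPK3 phosphorylates MLKL, which permeabilises the plasma membrane, a lytic death called necroptosis. c-FLIP, the product of *Cflar*, resembles caspase-8 but lacks its protease activity and limits its activation. DAXX is a histone chaperone and co-repressor that was first described as a Fas-binding protein, and XAF1 opposes the caspase inhibitor XIAP. Interferons act through transcription factors that bind short DNA elements, among them interferon-stimulated response elements (ISREs) and gamma-activated sites (GAS).

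Because most of the 9 genes rose together after IFN-β, the DNA around their start sites is shown. RefSeq start sites (build GRCm38.p6) gave 12 windows of 300 bases for the 9 genes, each from 250 bases before to 50 bases after a start. The windows were searched on both strands for the ISRE core GAAANNGAAA, for the GAS TTCNNNGAA and for a short form of the ISRE, AANNGAAA, which lies within every match to the core. The short form was added after the windows had been seen. In the 6 windows below, capitals mark every match, written 5′ to 3′ on the strand of the gene. The windows belong to the 4 genes that rose most and to the 2 genes whose windows hold the ISRE core:

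*Tnfsf10*, chr3:27316827-27317126, plus strand: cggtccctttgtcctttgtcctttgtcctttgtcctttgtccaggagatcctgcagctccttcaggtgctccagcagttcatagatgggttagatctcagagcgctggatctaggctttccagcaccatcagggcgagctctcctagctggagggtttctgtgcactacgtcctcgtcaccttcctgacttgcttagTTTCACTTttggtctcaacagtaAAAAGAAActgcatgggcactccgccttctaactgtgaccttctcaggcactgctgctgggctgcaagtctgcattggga
*Xaf1*, chr11:72301379-72301678, plus strand: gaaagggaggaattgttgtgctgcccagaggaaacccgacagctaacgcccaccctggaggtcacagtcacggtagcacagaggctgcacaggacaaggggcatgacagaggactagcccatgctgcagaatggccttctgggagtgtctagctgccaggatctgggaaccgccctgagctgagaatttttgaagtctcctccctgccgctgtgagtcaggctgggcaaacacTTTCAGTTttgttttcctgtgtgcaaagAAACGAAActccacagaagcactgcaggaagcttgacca
*Daxx*, chr17:33909195-33909494, plus strand: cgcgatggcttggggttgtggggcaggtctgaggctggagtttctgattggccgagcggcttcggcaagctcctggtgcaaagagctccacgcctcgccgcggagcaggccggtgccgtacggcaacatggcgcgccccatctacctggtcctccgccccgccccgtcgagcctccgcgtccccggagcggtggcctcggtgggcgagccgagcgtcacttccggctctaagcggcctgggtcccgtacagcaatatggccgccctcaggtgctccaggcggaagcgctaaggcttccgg
*Mlkl*, chr8:111338156-111338455, minus strand: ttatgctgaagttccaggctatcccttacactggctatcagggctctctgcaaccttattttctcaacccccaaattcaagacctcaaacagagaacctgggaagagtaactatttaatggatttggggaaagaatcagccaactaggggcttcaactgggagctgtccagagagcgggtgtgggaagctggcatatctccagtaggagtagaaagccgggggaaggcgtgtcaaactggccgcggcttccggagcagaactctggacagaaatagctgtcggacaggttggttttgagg
*Cflar*, chr1:58711241-58711540, plus strand: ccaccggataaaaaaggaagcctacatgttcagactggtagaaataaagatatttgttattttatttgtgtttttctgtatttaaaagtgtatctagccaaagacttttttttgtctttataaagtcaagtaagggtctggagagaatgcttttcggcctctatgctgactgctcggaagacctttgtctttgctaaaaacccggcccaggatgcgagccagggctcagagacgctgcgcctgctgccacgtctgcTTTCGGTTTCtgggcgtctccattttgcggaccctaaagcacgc
*Ripk1*, chr13:34002624-34002923, plus strand: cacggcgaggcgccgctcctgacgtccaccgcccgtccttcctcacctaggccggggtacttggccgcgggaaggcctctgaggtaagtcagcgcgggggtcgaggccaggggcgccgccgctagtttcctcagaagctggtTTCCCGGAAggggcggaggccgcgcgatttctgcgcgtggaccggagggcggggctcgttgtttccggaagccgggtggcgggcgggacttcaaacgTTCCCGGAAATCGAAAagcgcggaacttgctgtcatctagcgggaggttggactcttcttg

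The ISRE core was present in 2 of the 12 windows, those of *Cflar* and *Ripk1*, in 3.44% of all 32851 windows of the same table and in 3.33% of the 14285 windows of tested genes. The short form was present in 6 of 12 windows, in 23.9% of all windows and in 19.0% of those of tested genes; its 6 genes were *Cflar*, *Casp8*, *Tnfsf10*, *Xaf1*, *Ripk1* and *Fas*. The GAS was present in 2 of 12 windows, those of *Ripk1* and *Fas*, in 8.3% of all windows and in 6.95% of those of tested genes. *Tnfsf10* and *Xaf1* each held 2 copies of the short form and no core. No window of *Daxx*, *Mlkl* or *Ripk3* held any of the 3 letter patterns, which says only that these letters are not in these windows. A match is a description of the letters and not evidence that a factor binds there.

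Library totals were 49.9 to 77.7 M counts. *Ppargc1b*, the targeted gene, was at 33.3 to 36.7 CPM (counts scaled to the size of the library after TMM normalisation, which takes most genes as unchanged) with the control hairpin and 18.6 to 20.3 CPM with its own hairpin before IFN-β, and at 23.6 to 31.4 and 15.5 to 20.9 CPM after it, so the hairpin lowered it without removing it. Summed levels of 5 interferon-stimulated genes (*Ifit1*, *Isg15*, *Mx1*, *Irf7* and *Rsad2*) were 170 to 266 CPM in unstimulated and 5135 to 6671 CPM in IFN-β-treated libraries. Of 9 tested dendritic-like markers, 5 were higher in sh*Ppargc1b* DCs with and without IFN-β, and 3 of 8 macrophage-like markers were lower in each condition. Summed neutrophil-like markers were 36.6 to 92.3 CPM in shControl and 82.9 to 154 CPM in sh*Ppargc1b* libraries. Of these 7 markers only *S100a8* was higher by the test described below, with and without IFN-β. The differences of *S100a9*, *Camp* and *Ngp* were positive and those of *Elane*, *Mpo* and *Ly6g* negative in each condition, and none of these passed. Of 4 proliferation markers, only *Mki67* was lower in sh*Ppargc1b* DCs before IFN-β (log2 fold change −0.53), and none differed between hairpins after it. Of 5 mast cell or basophil-like markers, only *Gata2* was higher in sh*Ppargc1b* DCs, by 1.64 before and 1.47 after IFN-β. Lymphocyte-like and erythroid-like markers summed to at most 0.711 and 0.11 CPM in any library, and no marker list had a gene at 0 in every library. In bulk cultures, fewer cells of a type and less RNA per cell cannot be told apart, and the part of these marker differences in the knockdown results below was not tested.

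At steady state the 9 genes differed widely in level. Between genes, levels are given as CPM divided by the exon length in kilobases (RPKM). In unstimulated shControl DCs *Casp8* was highest, at 30.4 ± 0.648 RPKM (SD, n = 3 here and for each mean below). *Fas* at 16.1 ± 0.775, *Cflar* at 16.0 ± 0.645, *Ripk1* at 13.8 ± 0.312, *Ripk3* at 12.5 ± 0.604, *Mlkl* at 11.3 ± 0.598, *Daxx* at 9.6 ± 0.0668 and *Xaf1* at 7.06 ± 1.0 RPKM followed, and the gap between *Fas* and *Cflar* was smaller than their SDs. *Tnfsf10* was the lowest, at 0.454 ± 0.122 RPKM. Receptor, protease, both kinases and the executor MLKL were thus all transcribed before any interferon was given, while the ligand gene was transcribed at a much lower level.

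After IFN-β the order was different. In IFN-β-treated shControl DCs *Daxx* was highest at 74.4 ± 2.05 RPKM, followed by *Casp8* at 61.6 ± 2.11, *Mlkl* at 60.3 ± 1.92, *Xaf1* at 52.0 ± 1.27 and *Cflar* at 41.4 ± 2.92 RPKM. *Tnfsf10* had come to 27.8 ± 1.97 RPKM and did not differ from *Fas*, at 26.4 ± 0.881, beyond their spread, nor did *Casp8* from *Mlkl*. *Ripk1* at 15.9 ± 0.222 and *Ripk3* at 13.0 ± 0.972 RPKM were now the lowest of the 9. Gene-level counts do not separate isoforms, such as the long and short forms of c-FLIP.

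**Figure D1:**
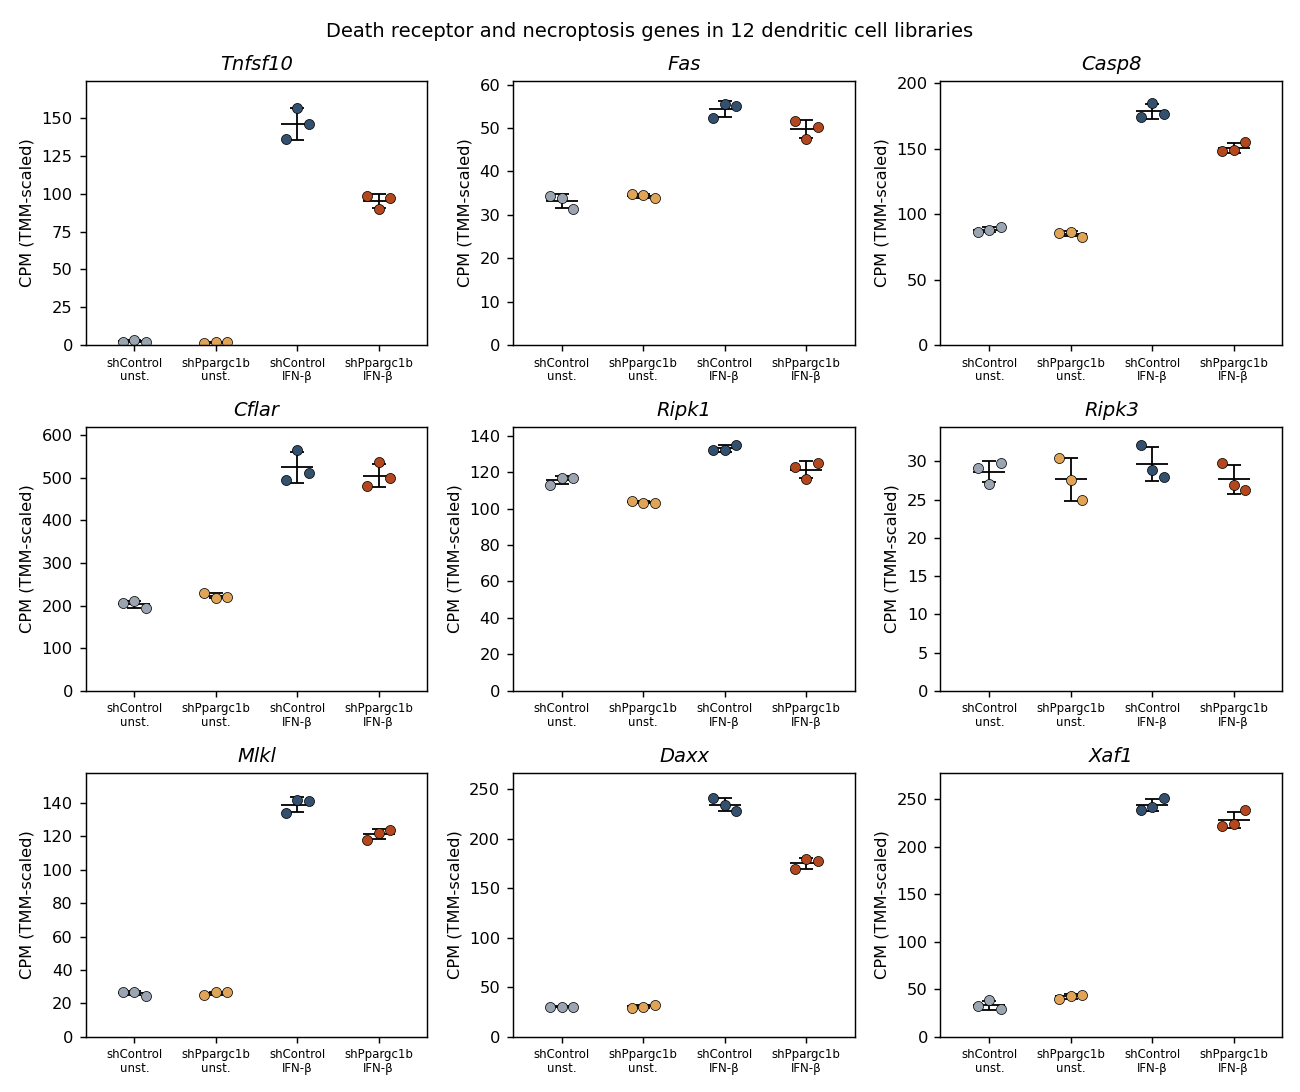
Level of each of the 9 genes in CPM (TMM-scaled; linear axis from 0, with its own range in each panel) in the 4 groups of 3 libraries (unst., unstimulated), where each point is a library, the horizontal mark is the group mean and the bars are 1 SD. *Tnfsf10*, *Daxx*, *Xaf1* and *Mlkl* show the largest fold difference between unstimulated and IFN-β-treated libraries, while the 4 groups of *Ripk3* overlap, between 24.9 and 32.2 CPM.

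IFN-β raised 8 of the 9 genes in shControl DCs and lowered none (adjusted p under 0.05, edgeR quasi-likelihood test with Benjamini-Hochberg adjustment over all tested genes, as for every adjusted p below). Among all tested genes 48.2% passed, 23.7% higher and 24.6% lower. In sh*Ppargc1b* DCs the same 8 genes were higher, where 42.6% of all tested genes passed, 21.4% higher and 21.2% lower. The median log2 fold change of the 9 was 1.37 in shControl and 1.18 in sh*Ppargc1b* DCs, against −0.03 and −0.02 over all tested genes. The exception in each hairpin was *Ripk3*. With library totals in place of TMM scaling, 7 of the 9 rose and 1 fell in each hairpin, and the split of all tested genes was 2598 higher and 8294 lower in shControl, against 4312 and 4481 with TMM, and 2340 and 7551 in sh*Ppargc1b* DCs, against 3895 and 3865. For the 8 genes that passed, no IFN-β-treated library overlapped an unstimulated library of the same hairpin, which held for 56.7% of all tested genes in shControl (27.2% with the treated libraries higher) and 50.1% in sh*Ppargc1b* DCs (24.7% higher).

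The death ligand gene *Tnfsf10* (chromosome 3, 27317028 to 27342427, GRCm38, plus strand) responded most. Its level was 2.1, 3.13 and 1.95 CPM in the unstimulated shControl libraries and 1.34, 1.99 and 1.85 CPM in the unstimulated sh*Ppargc1b* libraries. With IFN-β it was 136, 157 and 146 CPM in shControl and 98.8, 89.9 and 97.0 CPM in sh*Ppargc1b* libraries. The 6 treated libraries lay far above the 6 unstimulated ones, and the treated sh*Ppargc1b* libraries were all below the treated shControl ones. With IFN-β the log2 fold change was 5.93 ± 0.13 (SE) in shControl (60.8-fold, adjusted p = 6.13e-15) and 5.77 ± 0.13 in sh*Ppargc1b* DCs (54.4-fold, adjusted p = 1.71e-14).

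The receptor gene *Fas* (chromosome 19, 34290666 to 34327772, plus strand) responded modestly. It was at 34.3, 34.0 and 31.4 CPM in unstimulated shControl, 34.7, 34.5 and 33.9 CPM in sh*Ppargc1b* without IFN-β, 52.3, 55.6 and 55.2 CPM in IFN-β-treated shControl and 51.7, 47.5 and 50.3 CPM in IFN-β-treated sh*Ppargc1b* libraries. Unstimulated libraries of the 2 hairpins overlapped, and every treated library was higher than every unstimulated one. IFN-β raised it by a log2 fold change of 0.71 ± 0.05 in shControl (adjusted p = 7.40e-09) and 0.54 ± 0.05 in sh*Ppargc1b* DCs (adjusted p = 2.65e-07).

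*Casp8*, the initiator protease, and *Cflar*, its inactive relative, are neighbours on chromosome 1, with *Cflar* at 58711508 to 58758884 and *Casp8* beginning 36.5 kb beyond its end on the same strand. *Casp8* was at 86.4, 87.5 and 90.1 CPM in unstimulated shControl, 85.8, 86.3 and 82.6 CPM in sh*Ppargc1b* without IFN-β, 174, 185 and 176 CPM in IFN-β-treated shControl and 148, 149 and 155 CPM in IFN-β-treated sh*Ppargc1b* libraries. It was thus about equal between hairpins at steady state and lower in every treated sh*Ppargc1b* library than in any treated shControl library. Before IFN-β *Cflar* was at 205, 210 and 194 CPM with the control hairpin and at 230, 218 and 221 CPM with the hairpin against *Ppargc1b*, where every library was higher than any control. With IFN-β it was at 496, 566 and 511 CPM in shControl and 481, 536 and 499 CPM in sh*Ppargc1b* libraries, which overlapped. Protease and inhibitor rose together, by a log2 fold change of 1.02 ± 0.04 for *Casp8* and 1.37 ± 0.05 for *Cflar* in shControl DCs (adjusted p = 4.67e-12 and 8.26e-12) and 0.83 ± 0.04 and 1.18 ± 0.05 in sh*Ppargc1b* DCs (adjusted p = 8.32e-11 and 7.19e-11).

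Of the 2 kinases, *Ripk1* (chromosome 13, 34002363 to 34037147, plus strand) was at 113, 117 and 117 CPM in unstimulated shControl, 104, 103 and 103 CPM in sh*Ppargc1b* without IFN-β, 132, 132 and 135 CPM in IFN-β-treated shControl and 123, 116 and 125 CPM in IFN-β-treated sh*Ppargc1b* libraries. Each treated group lay above the unstimulated group of its hairpin by a small step. In log2 terms the fold change was 0.20 ± 0.04 in shControl (adjusted p = 3.03e-04) and 0.24 ± 0.04 in sh*Ppargc1b* DCs (adjusted p = 8.99e-05). Both steps rest on the scaling of the libraries: with library totals in place of TMM, which moved the median of all tested genes to −0.27 and −0.22, they were −0.04 (adjusted p = 0.431) and 0.03 (adjusted p = 0.479). *Ripk1* shares 241 exonic bases with *Serpinb6a* on the other strand, and since the strand setting of the counting is not stated in the sources used here, reads over these bases cannot be assigned to either gene.

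*Ripk3* (chromosome 14, 55784995 to 55788865, minus strand), the kinase that acts on MLKL, did not pass in either hairpin. Its level was 29.1, 27.1 and 29.8 CPM in unstimulated shControl, 30.4, 27.6 and 24.9 CPM in sh*Ppargc1b* without IFN-β, 32.2, 28.9 and 28.0 CPM in IFN-β-treated shControl and 29.8, 26.9 and 26.3 CPM in IFN-β-treated sh*Ppargc1b* libraries. All 4 groups overlapped. The log2 fold change with IFN-β was 0.05 (95% interval −0.11 to 0.21) in shControl and 0.00 (−0.16 to 0.16) in sh*Ppargc1b* DCs. With library totals in place of TMM it was −0.19 and −0.20 (adjusted p = 0.0485 and 0.0417), where the medians of all tested genes were −0.27 and −0.22.

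Its substrate gene *Mlkl* (chromosome 8, 111311797 to 111338177, minus strand), in contrast, rose steeply. *Mlkl* was at 26.8, 27.0 and 24.5 CPM in unstimulated shControl, 25.1, 26.6 and 26.6 CPM in sh*Ppargc1b* without IFN-β, 134, 142 and 141 CPM in IFN-β-treated shControl and 118, 122 and 124 CPM in IFN-β-treated sh*Ppargc1b* libraries. Unstimulated libraries overlapped between hairpins, and treated ones did not. Its log2 fold change was 2.41 ± 0.05 in shControl (5.33-fold, adjusted p = 3.04e-15) and 2.22 ± 0.05 in sh*Ppargc1b* DCs (4.66-fold, adjusted p = 1.04e-14).

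*Daxx* (chromosome 17, 33909414 to 33915590, plus strand) was at 30.4, 30.0 and 30.3 CPM in unstimulated shControl, 29.3, 29.6 and 32.4 CPM in sh*Ppargc1b* without IFN-β, 241, 234 and 228 CPM in IFN-β-treated shControl and 169, 179 and 177 CPM in IFN-β-treated sh*Ppargc1b* libraries. At steady state the hairpins overlapped, and with IFN-β every sh*Ppargc1b* library was well below every shControl library. The log2 fold change with IFN-β was 2.95 ± 0.05 in shControl (7.75-fold, adjusted p = 4.28e-16) and 2.52 ± 0.05 in sh*Ppargc1b* DCs (5.75-fold, adjusted p = 2.69e-15).

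*Xaf1* (chromosome 11, 72301629 to 72313733, plus strand) was at 31.7, 38.4 and 29.3 CPM in unstimulated shControl, 39.6, 43.2 and 44.1 CPM in sh*Ppargc1b* without IFN-β, 239, 242 and 251 CPM in IFN-β-treated shControl and 222, 224 and 238 CPM in IFN-β-treated sh*Ppargc1b* libraries. The sh*Ppargc1b* libraries were therefore the higher ones before IFN-β and the lower ones after it. The log2 fold change with IFN-β was 2.88 ± 0.08 in shControl (7.36-fold, adjusted p = 6.68e-14) and 2.43 ± 0.08 in sh*Ppargc1b* DCs (5.39-fold, adjusted p = 5.09e-13).

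**Figure D2:**
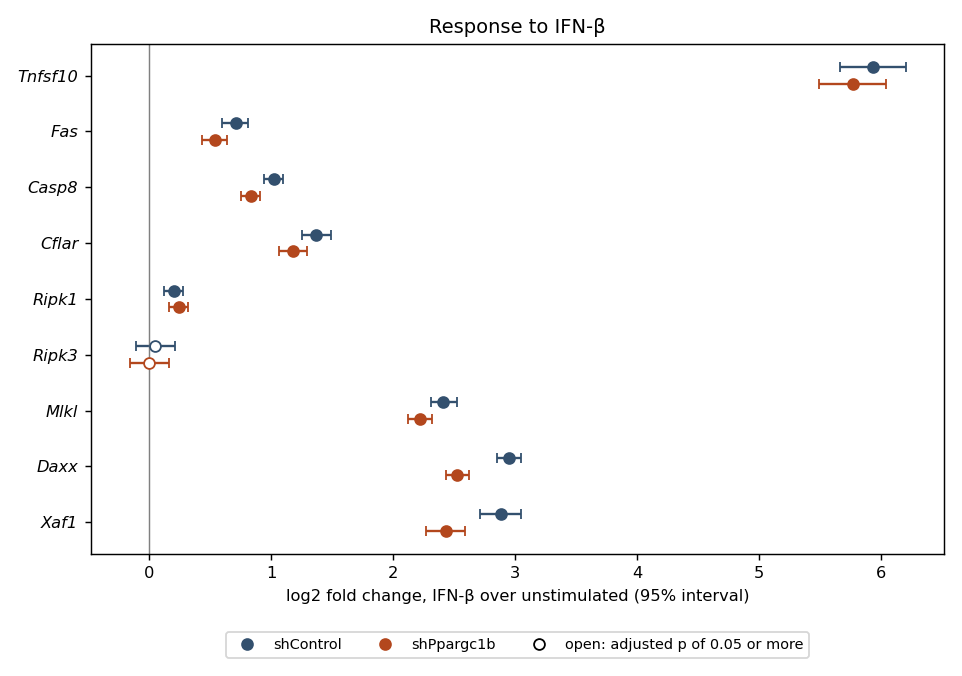
Log2 fold change of the 9 genes, IFN-β over unstimulated, in shControl and sh*Ppargc1b* DCs, with 95% intervals from the edgeR fit; open circles mark adjusted p of 0.05 or more. *Tnfsf10* lies near 6 in each hairpin, *Daxx*, *Xaf1* and *Mlkl* between 2.22 and 2.95, and *Ripk3* at 0.

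Without IFN-β, knockdown of *Ppargc1b* moved 2 of the 9 genes: *Xaf1* was higher and *Ripk1* was lower. Among all tested genes 23.6% passed, 12.4% higher and 11.1% lower, so the share of the 9 was near the background. The median log2 fold change of the 9 was 0.00, as was that of all tested genes. *Xaf1* was 1.28-fold higher (log2 fold change 0.35 ± 0.08, adjusted p = 0.00282). *Ripk1* fell by 0.17 on the log2 scale (SE 0.04, adjusted p = 0.00402), which is a 1.12-fold difference, and the call was lost without the filter on low counts (−0.15, adjusted p = 0.0525). *Serpinb6a*, which shares exonic bases with *Ripk1*, differed by −0.24 (adjusted p = 0.00126). That gene's part in the *Ripk1* value was not tested.

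The other 7 genes did not pass at steady state. *Daxx* had a log2 fold change of 0.01 (95% interval −0.09 to 0.11), *Mlkl* 0.00 (−0.10 to 0.10), *Casp8* −0.05 (−0.14 to 0.03), *Fas* 0.05 (−0.06 to 0.15) and *Ripk3* −0.05 (−0.22 to 0.11). Unstimulated libraries of the hairpins did not overlap for 4 of the 9 genes, against 36.8% of all tested genes; besides *Xaf1* and *Ripk1* these were *Cflar* and, by a narrow margin, *Casp8*. *Cflar*, at 0.14 (0.02 to 0.25, adjusted p = 0.0799), passed under 4 of 18 alternatives, 1 of them without IFN-β-treated shControl replicate 2 (adjusted p = 0.0467). *Tnfsf10*, at −0.46 (−0.82 to −0.10, adjusted p = 0.0656), rested on few counts and on single libraries. It was −0.21 (adjusted p = 0.387) without unstimulated shControl replicate 2 and −0.59 (adjusted p = 0.0279) without unstimulated shControl replicate 3.

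Other interferon-stimulated genes differed at steady state as well. Of the 5 interferon-stimulated genes, 2 were higher in unstimulated sh*Ppargc1b* DCs, *Isg15* by a log2 fold change of 0.48 and *Irf7* by 0.59, and their summed level was 170 to 246 CPM in shControl and 229 to 266 CPM in sh*Ppargc1b* libraries. Their part in the *Xaf1* difference was not tested. Unstimulated shControl replicate 2 had the highest *Tnfsf10* and *Xaf1* of its group, and without it the *Xaf1* difference was 0.48 (adjusted p = 4.30e-05).

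With IFN-β present, 5 of the 9 genes were lower in sh*Ppargc1b* DCs and none was higher. The log2 fold changes of the other 4, which did not pass, were also negative. Among all tested genes 24.2% passed, 12.7% lower and 11.5% higher. The median of the 9 was −0.13, and that of all tested genes was −0.01. The 2 groups did not overlap for 7 of the 9 genes, with the hairpin lower each time, against 38.7% of all tested genes, 20.7% with the hairpin lower. The members that fell were a death ligand, the initiator caspase, a kinase, the necroptosis executor and *Daxx*. Leaving out a library in turn left 4 to 6 genes lower and none higher.

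*Tnfsf10* showed the largest difference, from 136 to 157 CPM in shControl to 89.9 to 98.8 CPM in sh*Ppargc1b* DCs, which is a log2 fold change of −0.62 ± 0.09 (1.54-fold lower, adjusted p = 1.46e-04). *Daxx* was 1.34-fold lower, with 175 ± 5.54 CPM against 234 ± 6.47 CPM (log2 fold change −0.42 ± 0.04, adjusted p = 5.04e-06). *Casp8* was 1.18-fold lower (−0.24 ± 0.04, adjusted p = 2.88e-04) and *Mlkl* 1.14-fold lower (−0.19 ± 0.04, adjusted p = 0.00467). These 4 calls held under all 18 alternatives. In each hairpin, all 4 stayed above their unstimulated levels.

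*Ripk1* was 1.10-fold lower (−0.13 ± 0.04, adjusted p = 0.0177), and this call was lost under 9 of 18 alternatives, with adjusted p between 0.00621 and 0.164. Leaving out unstimulated shControl replicate 2 or 3 gave an adjusted p of 0.0511 or 0.0507, unstimulated sh*Ppargc1b* replicate 2 or 3 gave 0.0523 or 0.0529, IFN-β-treated sh*Ppargc1b* replicate 2 gave 0.0545 and IFN-β-treated shControl replicate 3 gave 0.0537. The value itself stayed between −0.17 and −0.11. *Fas*, at −0.13 (95% interval −0.23 to −0.02, adjusted p = 0.0719), passed without IFN-β-treated shControl replicate 1 (adjusted p = 0.0462) or without IFN-β-treated sh*Ppargc1b* replicate 1 (adjusted p = 0.0438). *Cflar* at −0.05 (−0.17 to 0.06), *Ripk3* at −0.10 (−0.26 to 0.06) and *Xaf1* at −0.10 (−0.25 to 0.05) did not pass.

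The summed level of the 5 interferon-stimulated genes was also lower in IFN-β-treated sh*Ppargc1b* DCs, at 5135 to 5412 CPM against 5821 to 6671 CPM, although of the 5 only *Mx1* passed, at −0.30 (adjusted p = 0.00423). Its part in the lower values of the 9 genes was not tested. The library codes fall into 3 runs of 4, each with all 4 groups, and the labels do not say what a run is. Within each run all 9 genes were lower with the hairpin when IFN-β was present, though *Fas* differed by only −0.01 in run 1. The share of all tested genes that were lower in every run was not counted. For *Daxx* the 3 differences of log2 CPM were −0.51, −0.38 and −0.36, and for *Tnfsf10* they were −0.46, −0.80 and −0.59.

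**Figure D3:**
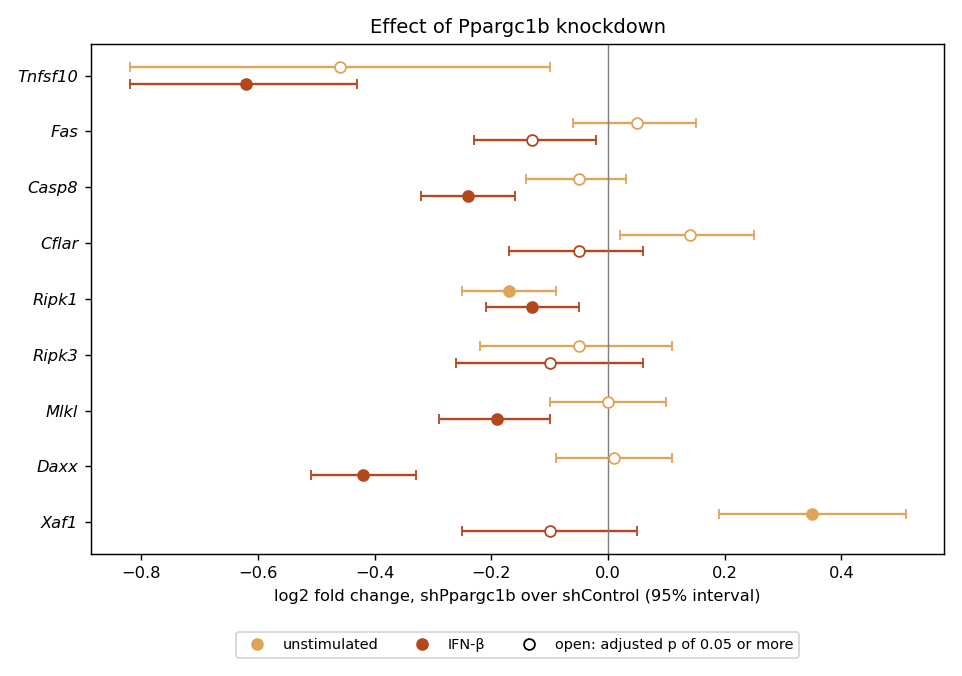
Log2 fold change of the 9 genes, sh*Ppargc1b* over shControl, in unstimulated and IFN-β-treated DCs, with 95% intervals from the edgeR fit; open circles mark adjusted p of 0.05 or more. With IFN-β all 9 points lie below 0, from −0.62 for *Tnfsf10* to −0.05 for *Cflar*, while without IFN-β they lie on both sides of it.

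Whether the knockdown effect differed between treated and unstimulated cells was tested as an interaction, the effect with IFN-β minus the effect without it. *Daxx* was the only member of the 9 to pass, where 0.73% of all tested genes passed, 0.669% with a lower and 0.0603% with a higher effect under IFN-β. Its knockdown effect was 0.43 lower on the log2 scale with IFN-β than without it (interaction −0.43 ± 0.06, adjusted p = 0.00636), and this held under all 17 alternatives, with adjusted p between 6.28e-07 and 0.036. *Xaf1* had an interaction of similar size, −0.45 ± 0.10, with an adjusted p of 0.0626. It passed under 4 of 17 alternatives: with the runs of library codes as a block (−0.45, adjusted p = 0.0165), with DESeq2 (−0.46, adjusted p = 0.003), without the filter on low counts (−0.46, adjusted p = 2.76e-07) and without unstimulated shControl replicate 2 (−0.55, adjusted p = 0.00266). Of the 5 interferon-stimulated genes, *Isg15* (−0.62, adjusted p = 0.0489) and *Irf7* (−0.72, adjusted p = 0.0244) also passed. The interactions of *Ifit1* (−0.54), *Mx1* (−0.44) and *Rsad2* (−0.50) did not.

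The interactions of the other 7 of the 9 genes did not pass. They were −0.19 for *Casp8* (95% interval −0.31 to −0.07), *Mlkl* (−0.33 to −0.06) and *Cflar* (−0.36 to −0.03), −0.17 for *Fas* (−0.32 to −0.03), −0.16 for *Tnfsf10* (−0.58 to 0.25), −0.05 for *Ripk3* (−0.28 to 0.18) and 0.04 for *Ripk1* (−0.08 to 0.15). Thus *Casp8*, *Mlkl* and *Tnfsf10* were lower with IFN-β and did not pass without it, but their effects were not shown to differ between the 2 conditions. For *Ripk1* the effect was lower in each condition, by 0.17 and 0.13. The median interaction of the 9 was −0.19, and that of all tested genes was −0.00.

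The surrounding pathway was followed in a list of 93 other genes in 10 roles, of which 89 were tested. *Fasl*, *Tnfrsf25*, *Bik* and *Hrk* were too low to test, and *Fasl*, the gene of the Fas ligand, had at most 7 counts in any library. IFN-β raised 53 and lowered 18 of the 89 in shControl DCs and raised 51 and lowered 16 in sh*Ppargc1b* DCs, beside 23.7% and 24.6%, and 21.4% and 21.2%, of all tested genes. With library totals in place of TMM these splits were 39 higher and 32 lower, and 34 higher and 30 lower, so small steps in the list depend on the scaling. Knockdown raised 20 and lowered 16 without IFN-β, and raised 9 and lowered 27 with IFN-β. Of all tested genes, 12.4% were higher and 11.1% lower without IFN-β, and 11.5% and 12.7% with it. The list was written with earlier results of these data known.

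Within this list, the largest responses to IFN-β were among the inputs to necroptosis. *Tlr3*, a sensor of double-stranded RNA that can engage RIPK3, rose by a log2 fold change of 3.95 ± 0.08 in shControl, and *Zbp1*, a sensor of Z-form nucleic acid that binds RIPK3, rose by 3.03 ± 0.06. *Adar*, an RNA-editing enzyme that limits ZBP1 activation, rose by 1.62 ± 0.04, and the ubiquitin ligase gene *Peli1* rose by 1.65 ± 0.05. In this role 5 of 8 genes rose and 1 fell in each hairpin. Among all tested genes 23.7% rose and 24.6% fell in shControl DCs, and 21.4% and 21.2% in sh*Ppargc1b* DCs. Of 18 genes that act on RIPK1 by ubiquitin or phosphate, 14 rose and 2 fell, among them *Rnf31*, the catalytic subunit of the linear ubiquitin ligase (1.58 ± 0.04), *Tnfaip3*, the gene of the ubiquitin-editing enzyme A20 (0.66 ± 0.06), *Cyld*, a deubiquitinase (0.40 ± 0.04), and the inhibitor of apoptosis genes *Birc2* (0.59 ± 0.06) and *Birc3* (0.37 ± 0.05).

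Of the ligands 2 of 5 rose and 1 fell, of the receptors 3 of 8 rose and 3 fell, and of the adaptors 5 of 7 rose and 1 fell in shControl DCs. Among all tested genes 23.7% rose and 24.6% fell. The rise of the ligand gene *Lta* was lost without IFN-β-treated shControl replicate 2 (adjusted p = 0.0889) or unstimulated shControl replicate 3 (0.0568). *Tnf* rose by 0.71 ± 0.07 and *Tnfsf14*, another ligand of the family, fell by 1.83 on the log2 scale (SE 0.25). *Tnfrsf10b*, which encodes the mouse TRAIL receptor, fell by 0.47 (SE 0.09) in shControl and by 0.69 (SE 0.09) in sh*Ppargc1b* DCs, while its ligand gene *Tnfsf10* rose. *Tnfrsf1a* and *Tnfrsf1b*, the TNF receptor genes, rose by 0.40 ± 0.05 and 0.57 ± 0.05. *Fadd*, the adaptor shared by the death receptors, had a log2 fold change of 0.24 ± 0.10 (adjusted p = 0.064) in shControl.

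Downstream, 6 of 9 caspase and apoptosome genes rose and 3 fell in shControl DCs, beside 23.7% and 24.6% of all tested genes. Among those that rose was *Cycs*, the gene of cytochrome c (1.10 ± 0.06). The BCL2 family was mixed, with 6 of 13 higher and 3 lower: *Bid*, which caspase-8 cleaves, rose by 0.90 ± 0.06, and the anti-apoptotic *Bcl2* fell by 0.57 (SE 0.06). *Xiap*, the caspase inhibitor that XAF1 opposes, rose by 0.41 ± 0.04. Among DAXX partners, the nuclear body genes *Pml* and *Sp100* rose by 2.05 ± 0.06 and 2.25 ± 0.05, and *Atrx*, which encodes the remodeller that works with DAXX, fell by 0.20 (SE 0.04). *Casp1* and *Casp4*, proteases of pyroptosis, rose by 1.81 ± 0.05 and 2.58 ± 0.05, and *Gsdme*, a pore-forming gasdermin, fell by 1.02 (SE 0.12).

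**Figure D4:**
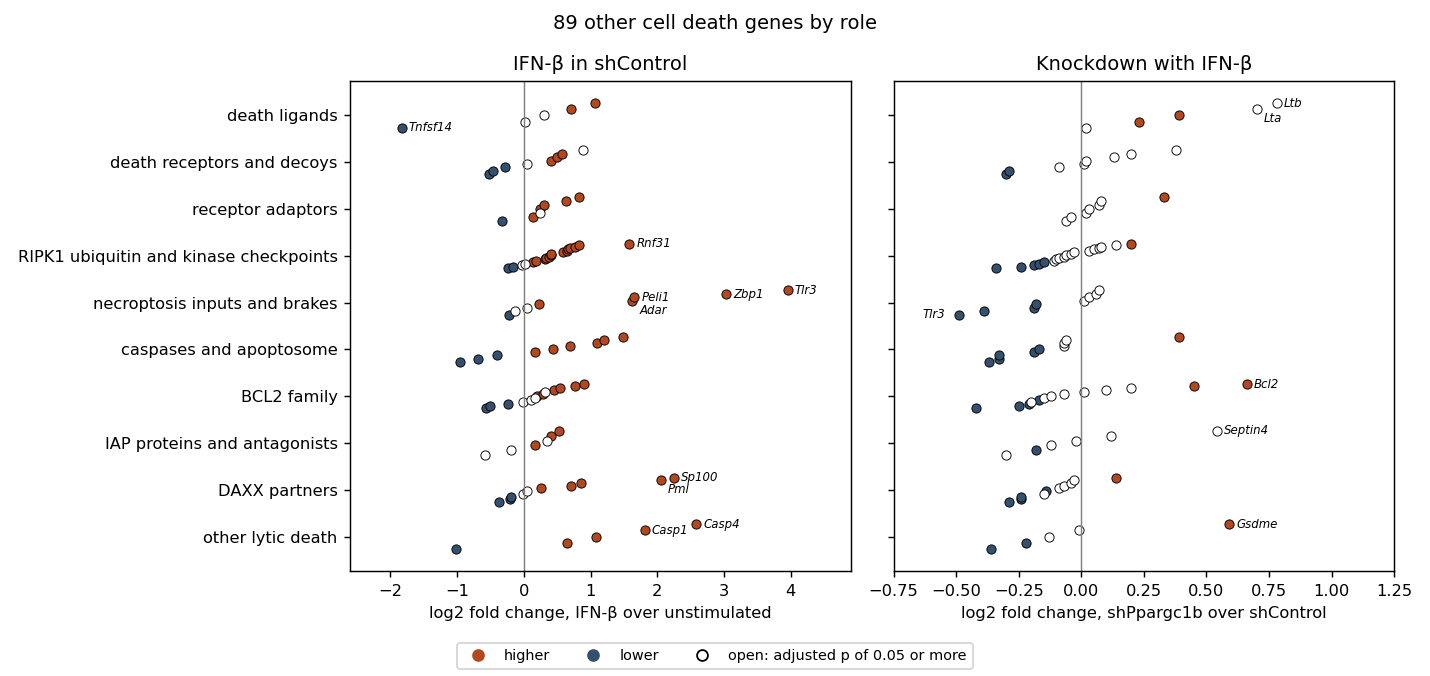
Log2 fold change of 89 other tested cell death genes, arranged by role, for IFN-β over unstimulated in shControl DCs (left) and for sh*Ppargc1b* over shControl with IFN-β (right). Each point is a gene, filled points have an adjusted p under 0.05 (orange higher, blue lower), and 53 of 89 are higher on the left while 27 are lower on the right.

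Of the ligands, knockdown at steady state raised 2 of 5 and lowered none, and of the adaptors it raised 4 of 7 and lowered none. Among all tested genes 12.4% were higher and 11.1% lower. The calls of the ligand gene *Ltb* and of the adaptor genes *Traf2* and *Traf5* were lost under 5, 8 and 6 of 18 alternatives. *Tnf* was higher by a log2 fold change of 0.85 ± 0.07 (adjusted p = 5.36e-07), *Tnfaip3* by 0.57 ± 0.06, *Traf1*, a TNF receptor adaptor, by 0.51 ± 0.04 and *Birc2* by 0.30 ± 0.06. In the BCL2 family 4 of 13 were higher, the anti-apoptotic *Bcl2* (0.68 ± 0.06) and *Bcl2l1* (0.39 ± 0.06) and the pro-apoptotic *Bid* (0.32 ± 0.06) and *Pmaip1* (0.29 ± 0.08), and 3 were lower. Of the receptors, *Tnfrsf10b* was higher by 0.42 ± 0.09 and *Tnfrsf1b* was lower, with a log2 fold change of −0.22 ± 0.05. Larger differences were 2.32 for *Tnfrsf11b* (adjusted p = 2.85e-04), which had only 5 to 40 counts a library, and −0.44 for *Tnfrsf21* (adjusted p = 6.39e-06). *Bcl2l11*, the gene of the pro-apoptotic protein BIM, was lower by a log2 fold change of −0.61 ± 0.08 and *Tlr3* by one of −0.49 ± 0.08. *Fadd* (−0.03 ± 0.10), *Tnfrsf1a* (−0.01 ± 0.05), *Zbp1* (0.05 ± 0.06) and *Xiap* (0.05 ± 0.04) did not pass.

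With IFN-β, knockdown lowered 4 of 8 necroptosis inputs and brakes, 5 of 9 caspase and apoptosome genes and 5 of 18 genes that act on RIPK1, beside 12.7% of all tested genes. It raised none of the first, 1 of the second and 1 of the third, beside 11.5% of all tested genes. The log2 fold change was −0.49 ± 0.07 for *Tlr3*, −0.39 ± 0.05 for *Peli1*, −0.36 ± 0.04 for *Casp1*, −0.34 ± 0.05 for *Ikbke*, −0.24 ± 0.05 for *Sp100* and −0.22 ± 0.04 for *Casp4*. *Zbp1* was lower by a log2 fold change of −0.19 ± 0.05 (adjusted p = 0.0189), a call lost without IFN-β-treated sh*Ppargc1b* replicate 2 (−0.16, adjusted p = 0.0551) or IFN-β-treated shControl replicate 3 (−0.18, adjusted p = 0.0554). Not every gene of the pathway was lower: *Tnf* (0.39 ± 0.07), *Traf1* (0.33 ± 0.04), *Bcl2* (0.66 ± 0.06), *Bcl2l1* (0.45 ± 0.06) and *Gsdme* (0.59 ± 0.13) stayed higher in sh*Ppargc1b* DCs. *Fadd* (0.03 ± 0.10), *Tnfrsf1a* (0.01 ± 0.05), *Xiap* (−0.02 ± 0.04) and *Pml* (−0.15 ± 0.06, adjusted p = 0.0701) did not pass.

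Likeness of pattern was measured for each of the 9 genes as the root mean square difference of log2 CPM from other genes over the 12 libraries, after each gene was centred on its own mean, among 8772 genes with a mean log2 CPM of at least 3. The points share libraries, so these values are descriptions. *Daxx* was closest to *Parp11* (0.059), followed by *Ifih1* (0.111), an RNA sensor, and *Uba7* (0.120), which activates ISG15. *Parp11* had a log2 fold change of 2.89 with IFN-β in shControl and of −0.39 with knockdown in IFN-β-treated cells, beside 2.95 and −0.42 for *Daxx*. The interaction of *Parp11* also passed, at −0.43 (adjusted p = 0.0205), and those of *Ifih1* and *Uba7* (−0.30 and −0.29) did not. *Xaf1* was closest to *Slfn5* (0.062), *Oas3* (0.094) and *Stat2* (0.111), and *Slfn5* and *Stat2* were, like *Xaf1*, higher with knockdown at steady state (0.28 and 0.21, adjusted p = 0.0123 and 0.00479). The *Slfn5* call at steady state was lost without unstimulated shControl replicate 1 or 3 (adjusted p = 0.0556 and 0.0639) or unstimulated sh*Ppargc1b* replicate 3 (0.0585). The interaction of *Slfn5* passed, at −0.51 (adjusted p = 0.0383), and those of *Oas3* and *Stat2* (−0.30 and −0.31) did not.

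*Tnfsf10* had no close match. Its nearest genes, *Ifi208*, *Tgtp2* and *Cxcl10*, were at 0.229, 0.269 and 0.283. Among the genes close to *Mlkl* were *Pttg1* (0.062) and *H2-T24* (0.068), and *Cflar* was closest to *Sap30* (0.063), *Aftph* (0.064) and *Cd274* (0.065), the gene of PD-L1. Nearest to *Casp8* were *Dennd1b*, *Stx16* and *Arl6ip1* (0.038 to 0.050), and nearest to *Fas* were *Aff1*, *Xrn2* and *Ttc9c* (0.043 to 0.048). *Ripk1* was closest to *Cdk12*, *Rac1* and *Ep300* (0.029 to 0.032) and *Ripk3* to *St6galnac6*, *Gm15530* and *Stim1* (0.065 to 0.071). Genes that vary little across libraries lie close to each other, and the part of this in these values was not tested. *Casp8*, *Stx16* and *Arl6ip1* did vary, with log2 fold changes of 1.02, 0.98 and 1.02 with IFN-β in shControl DCs.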

How the data were processed

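Libraries were made by the authors from ribosome-depleted RNA and read in pairs, which were trimmed and mapped to GRCm38 (mm10). The submitters' notes name Trim Galore 0.6.0 and STAR 2.7.8a, while the methods name another STAR release; the strand setting is not given in the sources used here. The deposited values were raw counts per GENCODE gene, not normalized or pooled, and all 12 columns were used. The test was that of edgeR 4.0.16 (R 4.3.3): filterByExpr (minimum count 10, minimum total 15), TMM scaling, 1 mean per group over all 12 libraries, quasi-likelihood F-tests, Benjamini-Hochberg adjustment over 18228 genes and a threshold of 0.05. CPM and RPKM (GENCODE M21 union exon length) were computed here on TMM-scaled totals. The steps were tested on simulated data. Exact permutation of 3 against 3 libraries allows no p below 0.1, so none was used. Replicates were numbered in record order, which pairs nothing.

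The members, the pathway list and the rule for named genes were chosen with earlier results of these data known. Named are the 9 genes, their direct partners (*Fadd*, *Tnf*, *Fasl*, *Tnfrsf10b*, *Tnfrsf1a*, *Zbp1*, *Adar*, *Birc2*, *Birc3*, *Cyld*, *Tnfaip3*, *Xiap*, *Bid*, *Atrx*, *Pml*), genes among the 2 with the largest change past the threshold in each role and comparison, and the 3 genes nearest each member; the marker and check genes beside them and *Serpinb6a* were named for the result they touch. A few genes that these rules name are not reported here. Alternatives were RLE scaling, library totals, no filter beyond 1 count, DESeq2 1.42.0, the run of library codes as a block, only the 6 libraries compared, and leaving out each library.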

Additional observations from a re-analysis of the deposited data

Results flagged for a closer look

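The knockdown effect differed between IFN-β-treated and unstimulated DCs, by the test of the interaction in the edgeR fit, for *Daxx* and, among others of the pathway list, for *Tnf*, *Adar*, *Peli1* and *Casp4*. The interaction was −0.43 on the log2 scale for *Daxx* (adjusted p = 0.00636), −0.46 for *Tnf* (0.0408), −0.28 for *Adar* (0.0498), −0.42 for *Peli1* (0.0119) and −0.31 for *Casp4* (0.0408). *Tnf* was higher with knockdown in each condition, by 0.85 without and 0.39 with IFN-β. *Peli1* had a knockdown effect of 0.03 without and −0.39 with IFN-β. Over 17 alternatives the adjusted p ran from 6.28e-07 to 0.036 for *Daxx*, from 1.66e-05 to 0.0638 for *Peli1*, from 5.62e-08 to 0.128 for *Tnf*, from 0.00348 to 0.162 for *Casp4* and from 0.00214 to 0.167 for *Adar*. The call of *Peli1* was lost without unstimulated shControl replicate 3 only.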

How the results depend on the processing

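Of 45 results (9 genes in 5 comparisons), 35 kept their direction and their side of the threshold under every alternative, and the others are given above. With library totals only, the direction of IFN-β in shControl turned for *Ripk1* (−0.04), *Ripk3* (−0.19), *Tnfsf12* (−0.23), *Birc6* (−0.08), *Ep300* (−0.03), *St6galnac6* (−0.20), *Stim1* (−0.20) and *Itgax* (−0.16). In sh*Ppargc1b* DCs it turned for *Ripk3* (−0.20), *Bcl2l1* (−0.03), *Birc6* (−0.11), *Atrx* (−0.20), *Hipk1* (−0.04), *St6galnac6* (−0.17) and *Itgax* (−0.18). That scaling moved the median of all tested genes to −0.27 and −0.22. The knockdown effect on *Ifi208* at steady state was −0.09, and leaving out a library gave −0.26 (without unstimulated shControl replicate 3) to 0.27 (without unstimulated shControl replicate 2). The interaction counts moved most. Against 1 member, 5 pathway genes and 133 genes in all, library totals gave 2 pathway genes and 84 genes in all, testing all genes with at least 1 count gave 2, 12 and 525, DESeq2 gave 2, 10 and 449, and the block for each run of codes gave 2, 9 and 425; the member added by these last 3 was *Xaf1*. Leaving out a library gave 1 to 2 members, 0 to 8 pathway genes (0 without unstimulated shControl replicate 3) and 36 to 271 genes in all (36 without that library and 271 without IFN-β-treated sh*Ppargc1b* replicate 2). The block also called 4 members at steady state instead of 2, adding *Tnfsf10* (adjusted p = 0.0475) and *Cflar* (0.0287). The cause of these shifts was not tested. No paired analysis by replicate number was possible because the labels give no replicate numbers, so the only block was the run of codes. Deviations from the group means correlated at 0.03 to 0.15 (median 0.09) between libraries of the same run and different groups. Between libraries of different runs and groups they correlated at −0.15 to 0.06 (median −0.04). With 3 libraries a group, the SE of a member's knockdown effect ran from 0.04 to 0.17 on the log2 scale.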
